A study of Mus musculus with 8 samples.

Results

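Msln, Rnf152, Qrfp, Fam13c and Gm12663 are the 5 of 55487 genes in the deposited count table that are described here. They were chosen by name because each changed in the same direction in cultured LLC cells and in the study's list for tumors, so the difference between genotypes is part of the choice. All values below come from the cultured cells. For the difference between genotypes in these 5 genes, values are therefore given as a description, without a test.

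LLC (Lewis lung carcinoma) is a mouse lung carcinoma line that is widely grafted into mice. Poly(A)-selected, strand-marked RNA-seq libraries were made from 4 wild-type and 4 ΔAgo2 samples of this line, and their labels name no difference in batch. Wild-type cells were the line itself, and no vector is described for them. ΔAgo2 cells carried a lentiviral CRISPR-Cas9 vector, LentiCRISPRv2, with a guide against Ago2, were selected with puromycin and were then sorted into single-cell clones. Both were grown in DMEM with 10% fetal bovine serum and penicillin-streptomycin, and no drug treatment distinguished the groups. The knock-out, the vector, the selection and the descent from a clone cannot be told apart. The replicates were labelled biological, but no source states that they were separate cultures or clones, and p-values then measure only the spread between these samples.

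Ago2 encodes the Argonaute protein that holds a small RNA and, through it, finds and silences matching transcripts. Msln encodes a precursor that is cut by furin into a secreted factor and mesothelin, a protein held on the cell surface by a GPI anchor, which binds the mucin Muc16. Mesothelin is made by the mesothelium that lines the chest and abdomen, and by many carcinomas. Rnf152 encodes a ubiquitin ligase of the lysosome that restrains mTORC1, the kinase complex that couples growth to amino acids. Qrfp encodes the precursor of an RF-amide neuropeptide that acts on the receptor Qrfpr and is best known from the hypothalamus. Fam13c belongs to the FAM13 family, in which Fam13a is the best studied member. Gm12663 is a processed pseudogene, that is, a copy of a spliced messenger RNA that was inserted back into the genome.

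The 5 genes lie on 5 different chromosomes of GRCm38 (mm10). Msln (ENSMUSG00000063011) occupies bases 25748613 to 25754378 of chromosome 17 on the minus strand and has 16 exons. Rnf152 (ENSMUSG00000047496) occupies bases 105276914 to 105356710 of chromosome 1 on the minus strand. Qrfp (ENSMUSG00000043102) occupies bases 31806166 to 31810580 of chromosome 2 on the minus strand and has 2 exons. Fam13c (ENSMUSG00000043259) occupies bases 70440481 to 70558736 of chromosome 10 on the plus strand and has 14 exons. Gm12663 (ENSMUSG00000101316) occupies bases 16635109 to 16636066 of chromosome 11 on the minus strand and is 1 exon of 958 bases. Their annotated lengths ran from 958 to 8492 bases, around a median of 3122.5 over all genes tested. Their GC contents ran from 43.1% in Rnf152 to 55.5% in Msln, around a median of 49.6%.

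Between 39628101 and 68530912 reads were counted per library. Wild-type replicate 4 stood apart from the other libraries. Its median Spearman correlation with the rest of its group was 0.864, against 0.948 to 0.961 for the other wild-type and 0.985 to 0.986 for the ΔAgo2 libraries. Mitochondrial transcripts took 0.540% of its counts, against 2.39% to 4.51% elsewhere, and the Spearman correlation of its deviations with gene GC content was 0.72, against -0.51 to 0.34. The median SD of log2 CPM (CPM are counts scaled to the library size, with TMM factors) over genes was 0.78 in wild-type and 0.23 in ΔAgo2 libraries, and 0.43 in wild-type without replicate 4. Ago2 transcripts did not separate the genotypes, at 3842 to 34965 counts in wild-type and 12319 to 23871 in ΔAgo2 libraries (log2 fold change 0.21, SE 0.40, adjusted p = 0.908, edgeR's quasi-likelihood test, two-sided, Benjamini-Hochberg adjustment). Editing of a few bases can remove a protein without lowering its transcript, so this count does not check the labels. The study measured Ago2 protein itself by western blot in both kinds of LLC cells, and that blot was not examined here. The lung lineage markers Nkx2-1 and Sftpc were at 0 and at most 1 count, and Epcam at most 1, whereas the keratin Krt18 had 5061 to 19360 counts in wild-type and 8924 to 17429 in ΔAgo2 libraries.

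Msln was the most abundant of the 5 genes in ΔAgo2 cells and was higher there than in wild-type cells. It was counted 12, 7, 11 and 33 times in wild-type replicates 1 to 4. In ΔAgo2 replicates 1 to 4 it was counted 817, 600, 656 and 417 times. The groups did not overlap, and the highest wild-type library was replicate 4. After scaling, Msln was at 0.383 ± 0.432 CPM in wild-type cells against 12.9 ± 3.52 in ΔAgo2 cells (SD, n = 4). The lowest ΔAgo2 library was 7.70 times as high as the highest wild-type library. The log2 fold change, ΔAgo2 minus wild-type, was 5.14 (SE 0.74), and 6.28 without wild-type replicate 4.

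Rnf152, the lysosomal ubiquitin ligase, was low in both groups and higher in ΔAgo2 cells. Wild-type replicates 1 to 4 held 5, 2, 6 and 0 counts. ΔAgo2 replicates 1 to 4 held 71, 38, 34 and 39 counts. Every ΔAgo2 library lay above every wild-type library, and the lowest was 7.26 times the highest wild-type library in CPM. Its level was 0.0548 ± 0.0486 CPM in wild-type cells against 0.907 ± 0.179 in ΔAgo2 cells (SD, n = 4), with a log2 fold change of 3.92 (SE 0.65). The ratio of CPM over the summed counts of each group was 15.6, with an exact 95% counting interval of 8.88 to 29.8. These intervals cover counting error only, not the spread between libraries.

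Qrfp, the neuropeptide precursor, was at or under 3 counts in every wild-type library. Its counts were 0, 0, 2 and 2 in wild-type replicates 1 to 4. They were 57, 48, 36 and 16 in ΔAgo2 replicates 1 to 4. The groups were separate, and the 2 wild-type libraries with any reads were replicates 3 and 4. The ratio of CPM over summed counts was 43.6, with an exact 95% counting interval of 16.7 to 162, so the size of the difference is only loosely set by 4 wild-type reads in all. The fitted log2 fold change was 5.23 (SE 0.88), and 5.99 without wild-type replicate 4. For a gene so near 0 this value depends on the prior count and is no bound. In CPM, ΔAgo2 replicate 4 was the lowest ΔAgo2 library for Qrfp (0.303), for Msln (7.89) and for Rnf152 (0.738).

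Fam13c went the other way and was lower in ΔAgo2 cells. It was counted 56, 100, 65 and 45 times in wild-type replicates 1 to 4. In ΔAgo2 replicates 1 to 4 it was counted 10, 4, 8 and 7 times. No ΔAgo2 library reached the lowest wild-type library, which was 4.93 times as high in CPM as the highest ΔAgo2 library. Its level was 1.23 ± 0.217 CPM in wild-type cells against 0.147 ± 0.0431 in ΔAgo2 cells (SD, n = 4), a log2 fold change of -3.05 (SE 0.43). Over summed counts, wild-type was 8.25 times as high (exact 95% counting interval 5.61 to 12.6).

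Gm12663, the pseudogene, was also lower in ΔAgo2 cells. Its counts were 28, 48, 33 and 16 in wild-type replicates 1 to 4. In ΔAgo2 replicates 1 to 4 they were 6, 2, 2 and 3. The groups did not overlap, and ΔAgo2 replicate 1 was the highest of its group. The level was 0.559 ± 0.0883 CPM in wild-type cells against 0.0627 ± 0.0236 in ΔAgo2 cells (SD, n = 4), with a log2 fold change of -3.08 (SE 0.45). Wild-type was 8.65 times as high over summed counts, with an exact 95% counting interval of 4.88 to 16.7.

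**Figure D1:**
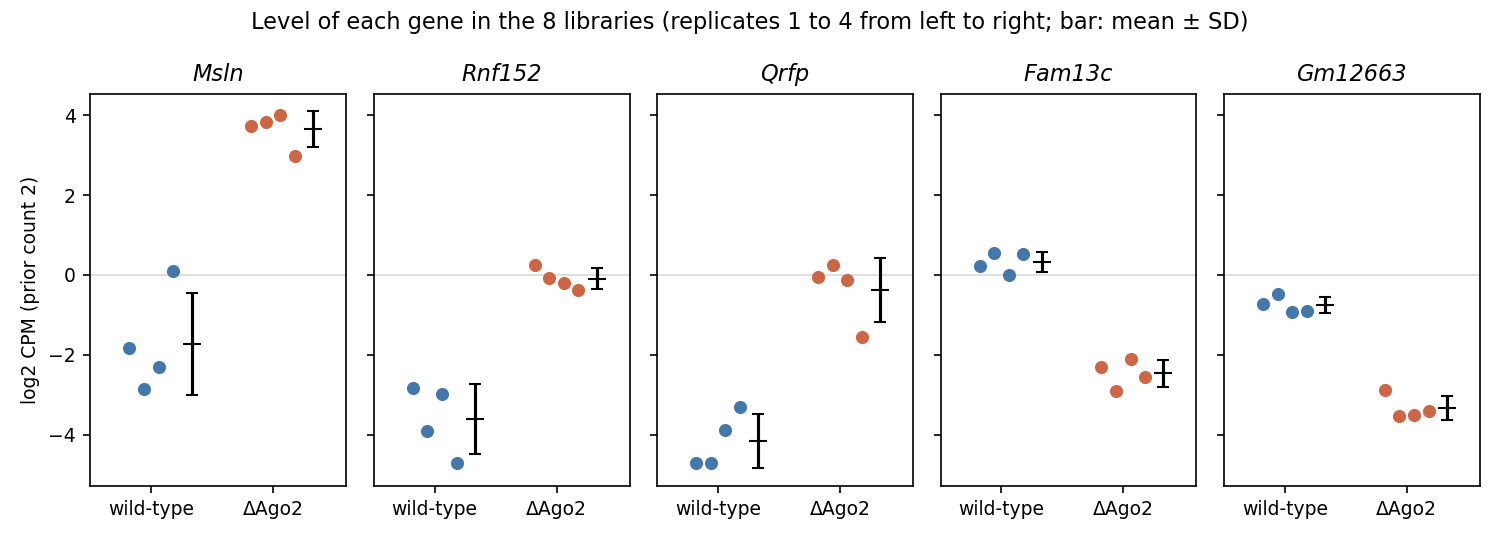
Level of each of the 5 genes in the 8 libraries, as log2 CPM with a prior count of 2 (vertical axis), with wild-type in blue and ΔAgo2 in orange; points are replicates 1 to 4 from left to right and bars are mean ± SD. Msln, Rnf152 and Qrfp lie higher in all 4 ΔAgo2 libraries, Fam13c and Gm12663 lie lower in all 4, and the wild-type Msln point that stands highest is replicate 4.

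All 5 genes passed the filter on low counts. Each did so through all 4 libraries of the group where it was higher, and would not have passed on the other group alone. Among the 14228 genes tested, 42 (0.295%) were called at an adjusted p under 0.05, of which 11 (0.0773%) were higher and 31 (0.218%) lower in ΔAgo2 cells. The groups did not overlap in 863 genes (6.07%), 439 higher (3.09%) and 424 lower (2.98%). All 5 genes are in both sets, 3 in the higher and 2 in the lower direction, and since the choice used this contrast nothing is read from that count. The median log2 fold change of all genes tested was -0.11, with quartiles at -0.46 and 0.21. By the size of the fitted log2 fold change Qrfp stood at rank 25 of 14228, Msln at 26, Rnf152 at 47, Gm12663 at 77 and Fam13c at 79.

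Levels of different genes can be set side by side in TPM (read counts scaled by gene length and library total). In ΔAgo2 cells Msln was highest at 15.0 ± 4.00 TPM (SD, n = 4), with no library under 9.09. Qrfp followed at 1.00 ± 0.449 TPM, from 0.37 to 1.41, and Rnf152 at 0.31 to 0.51 TPM. The ranges of these neighbours overlapped, as did those of Rnf152 and Gm12663, which lay at 0.17 to 0.38 TPM. Fam13c was lowest, at 0.04 to 0.08 TPM. In wild-type cells the order was different. Gm12663 led at 1.88 ± 0.674 TPM, followed by Fam13c at 0.470 ± 0.135 and Msln at 0.325 ± 0.281. The ranges of Fam13c (0.38 to 0.67 TPM) and Msln (0.13 to 0.74 TPM) overlapped, and Rnf152 and Qrfp, at no more than 0.04 and 0.05 TPM, could not be ordered at this depth.

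**Figure D2:**
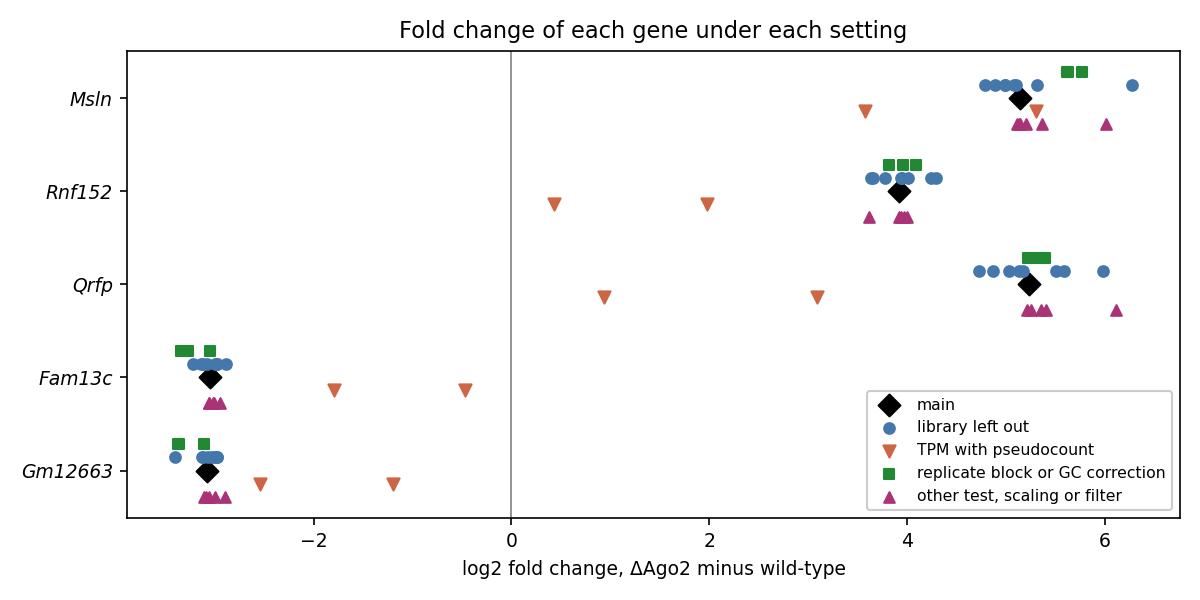
Log2 fold change, ΔAgo2 minus wild-type, of each gene (horizontal axis) under each setting of the analysis; the diamond is the value given in the text, circles leave out a library, downward triangles use TPM with a pseudocount, squares use the replicate number as a block or a GC correction, and upward triangles use another test, scaling or filter. Every symbol of Msln, Rnf152 and Qrfp lies right of 0 and every symbol of Fam13c and Gm12663 left of 0, with the values nearest 0 on log2(TPM + 1).

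Gm12663 is nearly identical to its parent, Ublcp1, which encodes a phosphatase with a ubiquitin-like domain that acts on the nuclear proteasome. The annotated Gm12663 transcript matched the Ublcp1 transcript over all of its 958 bases at 99.4% identity, with 5 substitutions and 1 gap. Written as the Ublcp1 base, the position counted from 1 at the 5′ end of Gm12663 and the Gm12663 base, the substitutions are A123G, T431G, C481T, A584C and A933G. The next closest annotated transcript, the pseudogene Gm8826 on chromosome 3, was 89.6% identical. The following stretch, at chr11:16635586-16635645 on the minus strand of GRCm38, is shown because it holds 2 of the 6 differences that let a read be placed on either gene, with the differing bases in capitals.
Gm12663: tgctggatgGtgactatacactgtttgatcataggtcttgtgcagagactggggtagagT
Ublcp1: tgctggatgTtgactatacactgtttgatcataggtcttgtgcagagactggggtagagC

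Of the 859 windows of 100 bases along Gm12663, the read length of these libraries, 480 (55.9%) held no difference from Ublcp1, and the longest identical stretch was 348 bases. These windows stand for single reads. The libraries are paired-end, and the share of read pairs with no difference in either read was not counted. How the counting treated reads that fit both genes is not given in the sources used here, so such reads could have been dropped or split. Ublcp1 was far more abundant, at 33.3 ± 15.3 CPM in wild-type cells against 40.9 ± 3.96 in ΔAgo2 cells (SD, n = 4), with a log2 fold change of 0.30 (SE 0.34, adjusted p = 0.841, edgeR), or 0.090 to 0.60 with a library left out. It was chosen after its values were seen. Its counts were 1822, 3733, 1738 and 562 in wild-type replicates 1 to 4 and 2705, 1634, 1484 and 2348 in ΔAgo2 replicates 1 to 4, and the groups overlapped. Gm12663 counts came to 1.54%, 1.29%, 1.90% and 2.85% of Ublcp1 counts in wild-type replicates 1 to 4. In ΔAgo2 replicates 1 to 4 they came to 0.222%, 0.122%, 0.135% and 0.128%. The percent was lower in every ΔAgo2 library. Since Gm12663 was chosen for its lower counts there and Ublcp1 was picked with its values known, this restates the choice, and the part of Ublcp1 reads in the Gm12663 counts was not tested.

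**Figure D3:**
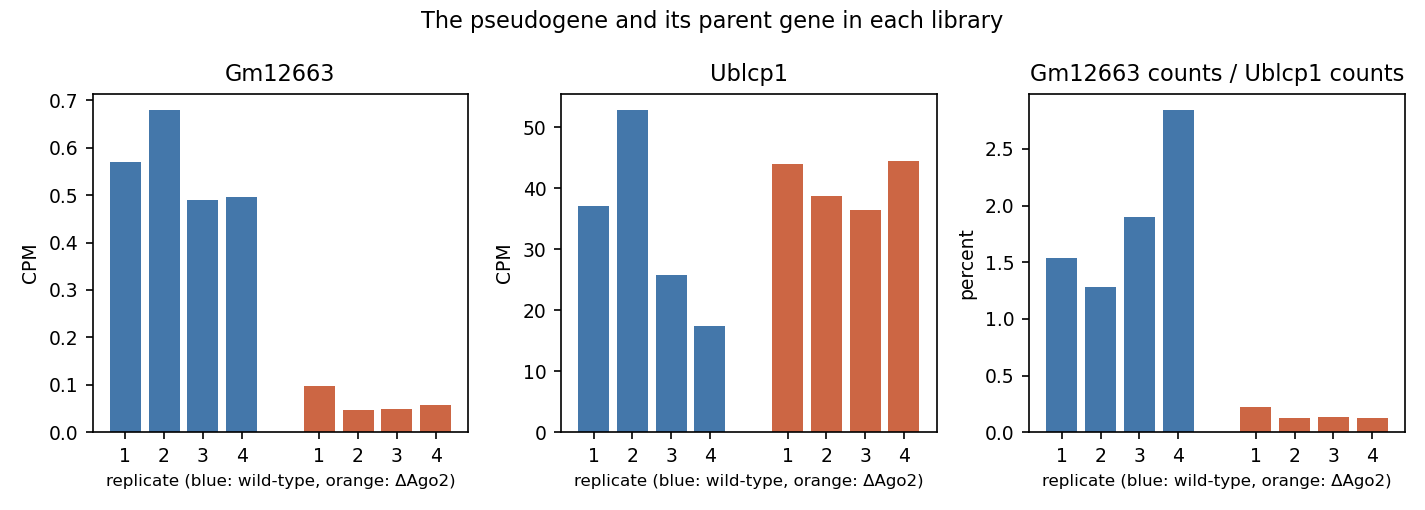
Gm12663 and its parent Ublcp1 in each library: CPM of Gm12663 (left), CPM of Ublcp1 (middle) and Gm12663 counts as a percent of Ublcp1 counts (right), with replicates 1 to 4 of wild-type in blue and of ΔAgo2 in orange. The Gm12663 bars and the percent are lower in all 4 ΔAgo2 libraries (0.122% to 0.222%, against 1.29% to 2.85%), while the Ublcp1 bars of the groups overlap.

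Genes within 250 kb of the 5 genes did not pass the test. Of 98 annotated genes there, 36 were tested and 0 were called by edgeR, beside 0.295% of all genes, or by DESeq2. By edgeR 0 had an unadjusted p under 0.05, against 1045 of 14228 (7.34%) of all genes. With so few called anywhere, 0 calls among these 36 neighbours says little. Their log2 fold changes ran from -1.38 to 0.99, 5 above 0 and 31 below. Their median was -0.39, against -0.11 over all genes. Without wild-type replicate 4 the range was -1.02 to 2.72, the highest being Lamc3 near Qrfp, with 12 above 0. The median was then -0.12, against -0.037 over all genes. Narfl and Wdr24 were the 2 of 36 whose groups did not overlap, beside 6.07% of all genes. Mslnl, the mesothelin-like gene, ends 282 bases from Msln on the opposite strand, and had 0 to 10 counts in wild-type and 0 to 3 in ΔAgo2 libraries. Of the 24 tested genes around Msln, 23 had a fold change below 0 (median -0.58), and 18 without wild-type replicate 4 (median -0.18), so the size of this shift rests largely on that library. The exception was Ccdc78 at 0.34 (adjusted p = 0.884, edgeR). Among the other genes close to Msln, Narfl was at -0.75 (adjusted p = 0.706), Haghl at -0.70 (adjusted p = 0.729) and Lmf1 at -0.78 (adjusted p = 0.738), all by edgeR. Without wild-type replicate 4 these were -0.23, -0.24 and -0.011. Lmf1 lies 85.8 kb from Msln. Rpusd1, the closest tested gene at 17.1 kb, was at -0.66 (adjusted p = 0.764), and Chtf18, at 21.2 kb, at -0.43 (adjusted p = 0.846), both by edgeR. For Rpusd1 and Chtf18, wild-type replicate 4 was the highest library, at 56.8 and 110.5 CPM. Near Qrfp, the tyrosine kinase gene Abl1, 1938 bases away, was at 230.4 ± 58.5 CPM in wild-type cells against 196 ± 8.49 in ΔAgo2 cells (log2 fold change -0.24, adjusted p = 0.826, edgeR), a sign that turned under log2(TPM + 1), log2(TPM + 0.1) and the GC corrections.

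Rnf152 had 2 tested genes in its window, 0.05 and 0.18 in log2 fold change, the second being Pign of the GPI anchor pathway, whose sign turned without wild-type replicate 4 and under 3 other settings. The only tested gene near Fam13c was Ccdc6, at -0.28 (adjusted p = 0.869, edgeR), a sign that turned on both TPM scales. Gm12663 lies between Sec61g, a subunit of the protein translocation channel, at -0.42 (adjusted p = 0.740), and Egfr, the epidermal growth factor receptor, at -0.19 (adjusted p = 0.913), both by edgeR. The sign of Egfr turned without wild-type replicate 3 and without ΔAgo2 replicate 2. In all, 5 annotated genes overlap Rnf152 or Fam13c, and they held at most 1 count in any library. The strand setting of the counting is not given in the sources used here.

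**Figure D4:**
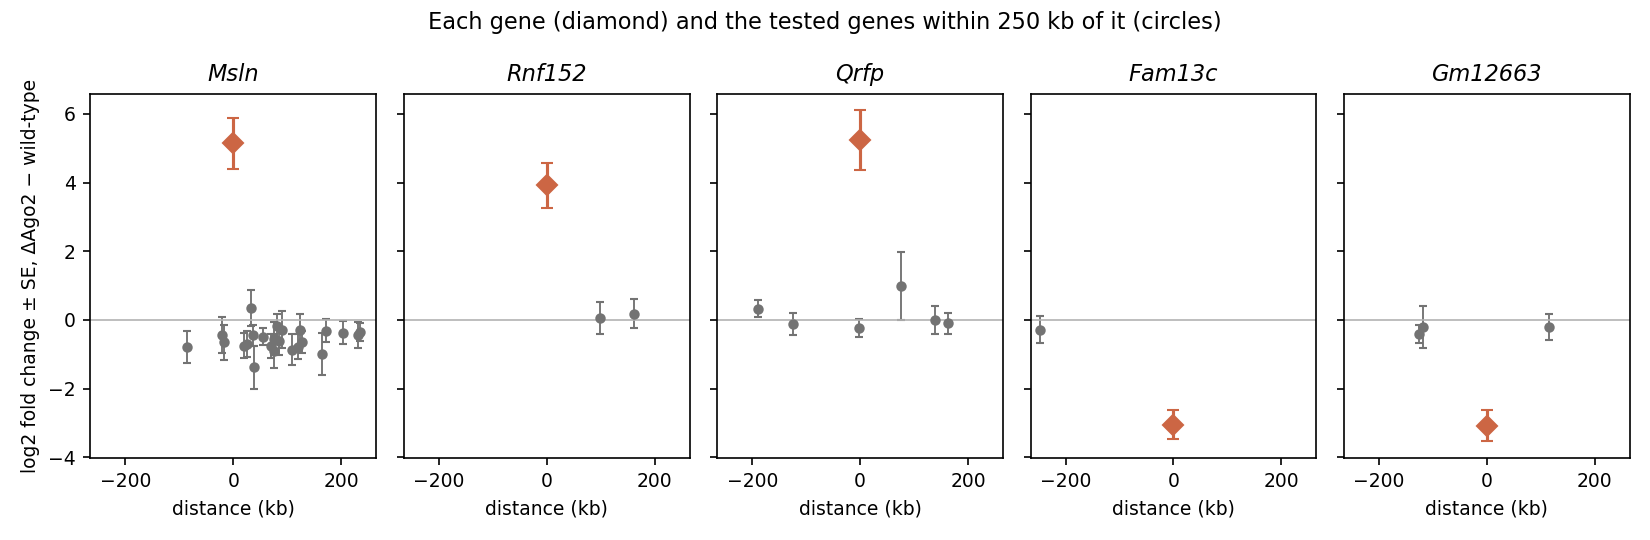
Log2 fold change ± SE, ΔAgo2 minus wild-type, of each of the 5 genes (orange diamond) and of the tested genes within 250 kb (grey circles) against distance from the gene in kb. The neighbours lie between -1.38 and 0.99, and the diamonds of the 5 genes lie outside that range.

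Mesothelial markers did not pass the test. Of 13 mesothelial markers, 4 were tested: Bnc1 and the keratins Krt8, Krt18 and Krt19, which also stand in the epithelial list. Of the 4, 0 were called by edgeR, beside 0.295% of all genes, and 0 by DESeq2. At an unadjusted p under 0.05 by edgeR, 1 was higher, beside 7.34% of all genes in either direction. With 4 genes, 0 calls says little. Muc16, the binding partner of mesothelin, had 0 counts in all 8 libraries, as did Calb2 and Gpm6a, and the mesothelial regulator Wt1 had at most 1. The transcription factor gene Bnc1 was at 19.5 ± 11.9 CPM in wild-type cells against 43.1 ± 14.6 in ΔAgo2 cells (log2 fold change 1.15, SE 0.47, adjusted p = 0.629, edgeR), with overlapping groups. Krt8, Krt18 and Krt19 lay below 0, at -0.74, -0.12 and -0.055, also with overlapping groups. Without wild-type replicate 4 all 4 tested markers lay above 0. Upk1b, too low to be tested, had 1 to 6 counts in wild-type and 0 in ΔAgo2 libraries. The summed level of the list, mostly the keratins Krt8 and Krt18, was 119.7 to 1275 CPM in wild-type and 349.8 to 574 CPM in ΔAgo2 libraries. In bulk RNA, more cells that carry a transcript and more transcript per cell cannot be told apart. Furin, which cuts the mesothelin precursor, had a log2 fold change of -0.63 (SE 0.41, adjusted p = 0.740, edgeR), and -0.060 without wild-type replicate 4. Of the 10 genes in the list of mesothelin relatives, partners and GPI anchor attachment, 8 were tested. Of these, 0 were called by edgeR, beside 0.295% of all genes, and 0 by DESeq2. By edgeR 0 had an unadjusted p under 0.05, beside 7.34% of all genes. The median of the 8 genes was -0.38, or 0.036 without wild-type replicate 4. Pigk and Pigs, subunits of the transamidase that attaches the anchor, were at 0.34 (adjusted p = 0.783) and -0.60 (adjusted p = 0.731) by edgeR, and at 0.16 and -0.27 without that library.

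In the lysosomal control of mTORC1, where Rnf152 acts, no gene was called either. Of 36 genes, 35 were tested and 0 called by edgeR, beside 0.295% of all genes, or by DESeq2. By edgeR 0 had an unadjusted p under 0.05, beside 7.34% of all genes. With so few called anywhere, 0 calls in a list of this size says little. Of the 35 genes, 8 lay above and 27 below 0, with a median of -0.31 against -0.11 over all genes. Without wild-type replicate 4 the median was -0.13 against -0.037 over all genes, with 24 below 0. The ends of the list were Rragb, a Rag GTPase, at -1.52 (SE 0.73, adjusted p = 0.706, edgeR) and Deptor, an inhibitor of mTOR, at 0.87 (SE 0.49, adjusted p = 0.732, edgeR). Rragb was at 0.994 ± 0.484 CPM in wild-type cells against 0.342 ± 0.322 in ΔAgo2 cells (SD, n = 4), and its groups overlapped. Deptor was at 172 ± 105 and 315 ± 40.8 CPM, and Wdr24, of the GATOR complexes, at 52.4 ± 29.2 and 31.1 ± 1.29 CPM (adjusted p = 0.680, edgeR). These were the 2 of 35 genes whose groups did not overlap, beside 6.07% of all genes, and Wdr24 is also a neighbour of Msln. Without wild-type replicate 4 they were at 0.54 and -0.28 in log2 fold change. Depdc5 and Seh1l, also GATOR subunits, were at 0.25 (adjusted p = 0.828) and 0.34 (adjusted p = 0.811), and the sestrin gene Sesn3 at -0.73 (adjusted p = 0.709), all by edgeR. Seh1l was at 0.11 without wild-type replicate 4 and Depdc5 at 0.14 without wild-type replicate 3.

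The receptor of the Qrfp peptide, Qrfpr, had 0 or 1 count in every library. Of the 15 genes for RF-amide peptides, their receptors and peptide processing, 5 were tested. Of these, 0 were called by edgeR, beside 0.295% of all genes, and 0 by DESeq2. At an unadjusted p under 0.05 by edgeR, 1 was higher and 1 lower, beside 7.34% of all genes in either direction. Pcsk1 and Pcsk2, the prohormone convertases of endocrine cells, had at most 1 count and 0 counts. Pam, which amidates the end of such peptides, was at 367 ± 91.9 CPM in wild-type cells against 595 ± 51.6 in ΔAgo2 cells without overlap (log2 fold change 0.70, SE 0.26, adjusted p = 0.568, edgeR). Kiss1r, the kisspeptin receptor, was at 1.63 ± 0.706 and 0.790 ± 0.141 CPM without overlap (log2 fold change -1.03, SE 0.42, adjusted p = 0.613, edgeR), and at -0.68 in log2 fold change without wild-type replicate 4. The RF-amide precursor gene Npff was at 0.57 (SE 0.85, adjusted p = 0.877, edgeR), at 0.21 when wild-type replicate 1 was left out, and at 2.39 when replicate 2, with 55 counts, was. The share of non-overlapping genes, 2 of 5, stands beside 6.07% of all genes, and with so few genes nothing more is read from it.

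Both relatives of Fam13c lay below 0 in every setting. Fam13a was at 3.26 ± 2.44 CPM in wild-type cells against 1.14 ± 0.211 in ΔAgo2 cells (log2 fold change -1.52, SE 0.58, adjusted p = 0.585, edgeR), with 27 to 309 and 43 to 78 counts. The lowest value was in wild-type, so the groups overlapped. Fam13b was at 46.9 ± 29.9 and 31.0 ± 5.0 CPM (log2 fold change -0.60, SE 0.46, adjusted p = 0.766, edgeR). Leaving out wild-type replicate 1 gave -0.99 for Fam13a, and leaving out wild-type replicate 3 gave -0.19 for Fam13b. Neither was called by edgeR, beside 0.295% of all genes, or by DESeq2. By edgeR Fam13a had an unadjusted p under 0.05, beside 7.34% of all genes. With weights for sample quality Fam13a was called, at -1.77, in a fit that called 257 of 14228 genes. The 4 Argonaute genes were all tested, and 0 were called by edgeR, beside 0.295% of all genes, or by DESeq2. By edgeR 0 of them had an unadjusted p under 0.05, beside 7.34% of all genes.

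**Figure D5:**
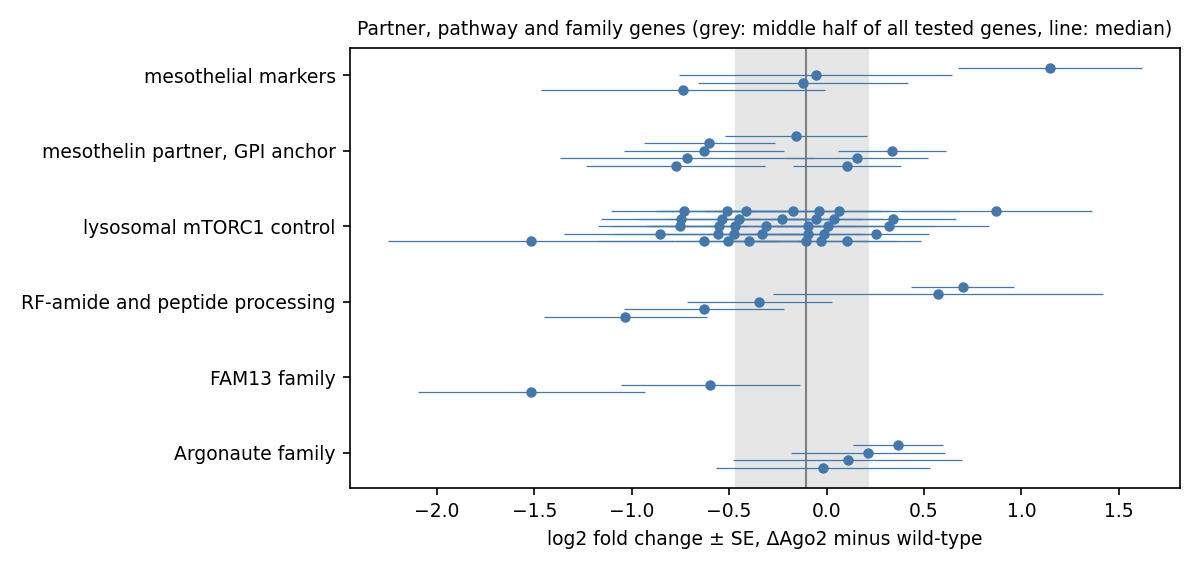
Log2 fold change ± SE, ΔAgo2 minus wild-type, of every tested gene in the lists of partner, pathway and family genes (blue), beside the median (line) and the middle quartiles (grey, -0.46 to 0.21) of all 14228 genes tested. The points run from -1.52 (Rragb, Fam13a) to 1.15 (Bnc1), and 0 of them passed the test, beside 0.295% of all genes.

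The genes whose profiles over the 8 libraries were most like those of the 5 genes were found by the root-mean-square difference between log2 CPM profiles centred on their means, among 14227 other genes. This measure is a description, since it follows the difference between genotypes that chose the 5 genes. Fam13c and Gm12663 were close to each other at 0.30 log2 units, and Kcnip3, a calcium-binding protein gene, was closest to Fam13c at 0.27 and second to Gm12663 at 0.39. Sned1 came next for Fam13c (0.44) and the imprinted gene Mest for Gm12663 (0.44). Closest to Rnf152 were Gabra3, a subunit of the GABA receptor, at 0.44, Celf2, an RNA-binding protein gene, at 0.45, and Nudt10 at 0.46. Qrfp was closest to the aquaporin gene Aqp6 at 0.40, then Slc25a48 at 0.53 and the lincRNA 2010300F17Rik at 0.68. Msln had no profile as near, with the T-box gene Tbx1 at 0.96, Qrfp at 0.99 and Slc25a48 at 1.04.

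Of the 4 protein-coding genes among the 5, Rnf152 has the longest 3′ untranslated region (UTR), where Argonaute proteins loaded with microRNAs mostly bind. At 7305 bases it was longer than that of 98.9% of 12027 tested coding genes, whose median was 1155 bases. The region was 2378 bases in Qrfp, 1366 in Fam13c and 129 in Msln. Matches to the seeds (bases 2 to 8) of 9 widely studied microRNAs were counted, as 7 letters on the transcript strand. These microRNAs were chosen as familiar examples, and their levels in LLC cells were not measured here. The mature sequences of those with a match in Rnf152 or Fam13c are shown with the seed in capitals, from RefSeq.
miR-16-5p: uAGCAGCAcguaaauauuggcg
miR-17-5p: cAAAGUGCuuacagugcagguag
miR-19b-3p: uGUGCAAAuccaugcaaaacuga
miR-26a-5p: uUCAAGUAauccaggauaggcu
miR-29a-3p: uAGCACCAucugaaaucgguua
miR-30a-5p: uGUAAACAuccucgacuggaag

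Rnf152 held 9 matches, 2 each for miR-17-5p, miR-19b-3p and miR-30a-5p and 1 each for miR-16-5p, miR-26a-5p and miR-29a-3p. Per kb this was 1.23 matches, beside 0.970 over all 12027 genes, so the number follows largely from the length. Qrfp held 1 match, for miR-200b-3p, Fam13c held 1, for miR-17-5p, and Msln held 0. Of the 3 genes that were higher in ΔAgo2 cells, Rnf152 and Qrfp thus held matches and Msln did not, and nothing is read from this about microRNAs whose levels are unknown here. At bases 4251 and 4262 of the Rnf152 region, a miR-19b-3p and a miR-17-5p match lie within a few bases of each other. They are shown with the single Fam13c match, at base 94, with the matched letters in capitals and in genome reference letters.
Rnf152 miR-19b-3p: aggtttgaaacTTTGCACaaaggcacttt
Rnf152 miR-17-5p: tttgcacaaagGCACTTTttacattttta
Fam13c miR-17-5p: tgaaaacggaaGCACTTTagagatagtat

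Of the 12027 genes, 14.6% held the letters GCACTTT in this region and 13.2% held TTTGCAC. A match of letters is a description and not a measured binding site.

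The promoters of Rnf152 and Qrfp, which were both higher in ΔAgo2 cells, are shown with every CG in capitals. Both are the 250 bases before the start site in RefSeq (GRCm38.p6, minus strand), at chr1:105356711-105356960 and chr2:31810581-31810830. RefSeq windows were matched for 3 of the 5 genes.
Rnf152: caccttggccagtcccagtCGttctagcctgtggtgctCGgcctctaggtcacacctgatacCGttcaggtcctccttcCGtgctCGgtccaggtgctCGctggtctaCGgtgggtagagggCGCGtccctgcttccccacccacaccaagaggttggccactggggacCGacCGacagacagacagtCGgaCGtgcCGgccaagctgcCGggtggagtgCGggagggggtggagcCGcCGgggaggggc
Qrfp: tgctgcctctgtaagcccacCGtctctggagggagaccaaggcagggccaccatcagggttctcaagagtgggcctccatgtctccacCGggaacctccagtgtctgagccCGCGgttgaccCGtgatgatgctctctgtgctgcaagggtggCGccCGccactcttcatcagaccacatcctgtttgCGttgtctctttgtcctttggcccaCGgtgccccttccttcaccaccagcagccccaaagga

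The Rnf152 promoter held 18 CG and was 67.6% GC, and 21.7% of 32851 promoters of the same length held at least as many. The Qrfp promoter held 9 CG and was 60.8% GC, and 40.3% of promoters held at least as many. The median promoter held 6, and 92.1% held at least 1, so neither promoter is rare in this respect. Fam13c, which was lower in ΔAgo2 cells, has 2 such windows, with 7 and 19 CG. DNA methylation was not measured here.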

How the data were processed

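RNA from 4 wild-type and 4 ΔAgo2 LLC samples was sequenced as paired-end reads of 100 bases. The authors mapped reads against a ribosomal RNA set before the mm10 genome, ran featureCounts on genes and deposited its raw counts for 55487 genes. The submitters' processing notes name STAR. The authors also deposited TPM, counts scaled by gene length and library total. Annotation release, strand setting and treatment of reads that fit several genes are not given in the sources used here.

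Genes were filtered with filterByExpr (14228 left), scaled by TMM, and compared in edgeR 4.0.16 under R 4.3.3 by its two-sided quasi-likelihood test, with genotype alone and Benjamini-Hochberg adjustment over all genes tested, called under 0.05. CPM uses the TMM-scaled library sizes. Names, positions, lengths and GC contents came from the GENCODE annotation of GRCm38, in which 93 identifiers had no match. Between 39628101 and 68530912 counts per library make 1 CPM worth 32.2 to 70.6 counts, and 3 counts were taken as the floor. Counting intervals are exact binomial ones on summed counts.

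The alternatives were DESeq2 1.42.0, RLE size factors, library size alone, no filter, at least 1 CPM in 4 libraries, limma 3.58.1 on log2(TPM + 1) and log2(TPM + 0.1), voomWithQualityWeights, the replicate number as a block, a GC correction without and with that block, and leaving out each library. The fits were tested on simulated counts. No 2 libraries of a group were alike within sampling noise. This cannot show whether they came from separate cultures.

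The 5 genes, the gene lists and the alternatives were chosen with earlier results of these data known. Named beside the 5 genes are: tested genes of the Argonaute, FAM13, mesothelin and RF-amide lists, those of the mTORC1 and mesothelial lists that were called or had the 3 smallest p in each direction, up to 3 tested neighbours on each side within 250 kb, and the 3 most alike profiles. Values are printed for some of these, and Furin stands in 2 lists. Marker lists of other cell types held no gene called by edgeR, beside 0.295% of all genes. Tested were 3 of 10 epithelial, 3 of 7 macrophage, 0 of 8 lymphocyte, 2 of 6 endothelial and 5 of 8 fibroblast markers. The 3 epithelial ones, Krt8, Krt18 and Krt19, also stand in the mesothelial list, so these 2 lists are not separate. At an unadjusted p under 0.05 by edgeR, 1 fibroblast marker was lower, beside 7.34% of all genes in either direction. DESeq2 called 1 fibroblast marker, beside 399 of 27620 genes. The tumor libraries were not analysed here.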

Additional observations from a re-analysis of the deposited data

Results flagged for a closer look

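In the wild-type group, 6 genes named or used here had a library whose distance from its nearest neighbour took up more of the group's range than Dixon's critical value for 4 samples allows. Chance gives about 1 such group in 20, and 66 groups were examined. In all 6 the library was wild-type replicate 4, which also stood apart over all genes, and values are on the log2 CPM scale. It was lowest for Seh1l, a GATOR subunit, at a ratio of 0.857 (1242 counts, against 4966 to 7363 in the others), and for Ccdc6, the neighbour of Fam13c, at 0.843 (795 counts, against 4567 to 7545). It was highest for Wdr24, also of GATOR, at 0.851 (3093 counts, against 1975 to 2625). It was also highest for 3 neighbours of Msln and Qrfp: Lmf1 at 0.921 (3002 counts, against 1255 to 1793), Narfl at 0.879 (1726 counts, against 910 to 1425) and Abl1 at 0.877 (10237 counts, against 10195 to 14213). None of Msln, Rnf152, Qrfp, Fam13c and Gm12663 had such a library in either group. What sets wild-type replicate 4 apart was not tested.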

How the results depend on the processing

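Msln, Rnf152 and Qrfp stayed higher and Fam13c and Gm12663 lower in ΔAgo2 cells under every alternative run, 19 for Msln and 18 for the others, which the filter of at least 1 CPM in 4 libraries removed. Their sizes depended on the scale. On log2(TPM + 1) the log2 fold changes were 3.58 for Msln, 0.43 for Rnf152, 0.94 for Qrfp, -0.46 for Fam13c and -1.19 for Gm12663. On log2(TPM + 0.1) they were 1.98 for Rnf152, 3.09 for Qrfp, -1.79 for Fam13c and -2.54 for Gm12663. A pseudocount shrinks the change of low genes by construction. Sample weights gave 6.12 for Qrfp, and the GC correction -3.36 for Gm12663, or -3.37 with the replicate block. Leaving out each library gave 4.79 to 6.28 for Msln, 3.64 to 4.29 for Rnf152, 4.73 to 5.99 for Qrfp, -3.21 to -2.89 for Fam13c and -3.40 to -2.97 for Gm12663, and the highest values for Msln and Qrfp came without wild-type replicate 4.

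How many genes were called depended strongly on the fit. The design used called 42 of 14228 genes. Over the same genes RLE factors called 44, library size 38, log2(TPM + 1) 15, log2(TPM + 0.1) 38 and sample weights 257. DESeq2 called 399 of 27620 genes, no filter 143 of 27776, and the filter of at least 1 CPM in 4 libraries 6 of 11777. The GC correction called 73 of 14226 genes, and 71 with the replicate block. Leaving out 1 library gave 1 to 113 calls over 14413 to 14580 genes. These were 12, 78, 31 and 113 without wild-type replicates 1 to 4, and 1, 7, 7 and 7 without ΔAgo2 replicates 1 to 4. Since the choice of the 5 genes used this contrast, nothing is read from how often they were called. All 5 genes were among the calls under DESeq2, RLE factors, library size, no filter, sample weights, both GC fits and without wild-type replicate 4. They were not all among them elsewhere: 4 on log2(TPM + 0.1), 1 on log2(TPM + 1), 3 and 2 without wild-type replicates 2 and 3, and 0 without wild-type replicate 1 or any ΔAgo2 library, and under the filter of at least 1 CPM in 4 libraries, where only Msln was tested. The share of calls that were higher was 26.2% in the design used, 53.3% and 44.7% on the TPM scales with 1 and 0.1 added, 40.5% with sample weights, 39.7% and 36.6% in the GC fits, and 22.2% in the block fit. It was 41.7%, 11.5%, 19.4% and 37.2% without wild-type replicates 1 to 4, and fits without a ΔAgo2 library had at most 7 calls. The median of all genes moved by 0.26 and 0.33 on these TPM scales, 0.10 with sample weights and 0.13 in the block fit. The cause of these differences was not tested.

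In the replicate block fit, 18 of 14228 genes were called, of the 5 only 1. The log2 fold changes were 5.63 for Msln, 4.09 for Rnf152, 5.23 for Qrfp, -3.05 for Fam13c and -3.11 for Gm12663. Deviations of same-numbered libraries correlated at -0.14, -0.049, 0.38 and 0.028, and 1 of 8 libraries correlated best with its own number. The mean correlation was 0.056, against -0.023 between libraries with different numbers. Wild-type replicate 4, which stood apart, enters these deviations, so pairing by number is neither shown nor excluded.

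The Argonaute, FAM13, mesothelin, mesothelial, mTORC1 and RF-amide lists and the neighbours kept 0 calls in every alternative, except that sample weights called 1 FAM13 gene, Fam13a. The fit with sample weights called 257 of 14228 genes. Of 47 named genes, 22 changed sign somewhere and 1 was called somewhere. Among those with printed values, for example, Ago2 turned to -0.047 without wild-type replicate 4 (-0.047 to 0.60 over the libraries left out). Pign turned to -0.085 with sample weights, -0.027 and -0.035 in the GC fits and -0.10 without wild-type replicate 4 (-0.10 to 0.39). Abl1 turned to 0.0012 and 0.0013 on the TPM scales and 0.020 and 0.028 in the GC fits. Egfr turned to 0.094 without wild-type replicate 3 and 0.0018 without ΔAgo2 replicate 2 (-0.42 to 0.094), and Ccdc6 to 0.11 and 0.12 on the TPM scales. For Qrfp and Rnf152, 0 to 6 wild-type counts per library limit how precisely any fold can be given.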

Other observations

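Among the RF-amide genes too low to be tested, the precursor gene Npvf had 1 to 7 counts in wild-type and 4 to 11 in ΔAgo2 libraries, and the secretory granule gene Scg5 had 1 to 20 and 0 to 7. The counts of both genes overlapped between the groups. Prlh and Kiss1, which encode other RF-amide peptides, and the receptor gene Npffr2 had 0 counts in all 8 libraries. These genes were named after their values were seen.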
